A study of Mus musculus with 6 samples.

Results

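The genes induced by interferons were followed across 3 genotypes of mouse lung exposed to IL-13, with the genes typical of type I interferon kept apart from those typical of interferon gamma. The members were 39 named genes, 26 of them type I induced and 13 interferon gamma targets, and each was matched to the array's probe sets by its exact platform gene symbol. Of these, 35 had a probe set that named no other gene, among 18193 genes measured in this way. Isg15, Ifi44, Gbp4 and Gbp5 had none and carry no value here. After a filter on dim genes, 32 members remained among 11861 genes tested, 21 of them type I induced and 11 interferon gamma targets. Oas3, Mx1 and Mx2 fell below that filter.

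Adult BALB/c mice were given IL-13, a cytokine of type 2 inflammation that uses the IL-4 receptor, at 2 to 3 µg into the trachea on each of 7 days, and RNA of the whole lung was taken 24 hours after dosing ended. Wild-type mice (WT) carried both copies of Il4ra and no transgene. IL4R KO mice, also called the knockout, lacked both copies. IL4R KO + SMP8-IL4R mice, called transgenic below, lacked both native copies and carried, in the heterozygous state (+/-), a construct with the receptor behind the SMP8 promoter, described by the submitters as specific to smooth muscle. Each group had 2 Affymetrix mouse expression arrays, and each array held RNA pooled from 4 mice, so p-values measure the spread between pools. All groups received IL-13, and no comparison is against untreated lung. Values are log2 RMA values, on which a difference of 1 is a 2-fold change, and the sign of each difference follows the order in which its groups are named.

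Interferons are cytokines that induce an antiviral and antimicrobial state in the cells they reach. Type I interferons act through the receptor chains Ifnar1 and Ifnar2 and through Stat2 and Irf9, which act at the interferon-stimulated response element, whereas interferon gamma acts through Ifngr1 and Ifngr2 and the gamma-activated site and induces Irf1, guanylate-binding proteins, immunity-related GTPases and the antigen-processing genes. In lung, these programs are best known from viral and intracellular bacterial infection, and type 2 cytokines signal through a different factor, Stat6.

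The promoters of 4 GTPase members and of Irf8 are shown because the values below rest on these genes. Sequences are the bases just before a RefSeq transcript start in GRCm38.p6, 5′ to 3′ in the direction of the gene, 120 bases for the GTPases and 180 for Irf8, and capitals mark matches to the core of the response element (GAAA, any 2 bases and GAAA again) or to the gamma-activated site (TTCNNNGAA), searched on both strands. Adjacent or overlapping matches run together in capitals. Igtp (chr11:58199436-58199555, plus strand) came under a rule that took the members of widest range, and Irgm1 (chr11:48871421-48871540, minus strand), Gbp2 (chr3:142620543-142620662, plus strand), Gbp3 (chr3:142559924-142560043, plus strand) and Irf8 (chr8:120736178-120736357, plus strand) were chosen after their values were seen.
Igtp: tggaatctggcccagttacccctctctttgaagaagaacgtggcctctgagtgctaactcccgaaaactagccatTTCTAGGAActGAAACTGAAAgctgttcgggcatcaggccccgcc
Irgm1: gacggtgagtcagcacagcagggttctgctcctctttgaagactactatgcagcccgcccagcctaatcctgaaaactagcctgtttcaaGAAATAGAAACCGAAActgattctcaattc
Gbp2: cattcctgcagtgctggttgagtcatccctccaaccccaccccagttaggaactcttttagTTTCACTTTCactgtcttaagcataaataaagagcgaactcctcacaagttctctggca
Gbp3: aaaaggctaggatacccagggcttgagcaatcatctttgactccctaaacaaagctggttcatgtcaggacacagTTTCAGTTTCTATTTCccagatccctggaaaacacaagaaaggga
Irf8: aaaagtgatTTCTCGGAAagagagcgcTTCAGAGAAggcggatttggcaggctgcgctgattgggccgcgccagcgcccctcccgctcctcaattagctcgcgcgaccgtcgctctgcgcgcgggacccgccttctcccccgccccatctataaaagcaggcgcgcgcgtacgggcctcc
Igtp held both kinds of match, the response element core beginning 34 bases before its start and the gamma-activated site 45 bases before it. Irgm1 and Gbp3 each held 2 overlapping cores, beginning at 30 and 45 bases before the start, and Gbp2 held 1 at 59 bases. Irf8 held no core and 2 gamma-activated sites, beginning 171 and 153 bases before its start. Gbp3 and Irf8 each had another RefSeq start, and the 250 bases before it held neither kind of match. Only starts with a match are shown.

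Of the 39 members, 30 had a promoter entry, and the response element core lay within 250 bases before a start in 14 of the 30, or 46.7%, against 936 of 27025 genes of the table, or 3.46%. All 5 GTPase members with an entry held it, namely Gbp2, Gbp3, Gbp5, Igtp and Irgm1. So did 9 of 20 type I induced members, or 45%, among them Oas1a, Bst2, Ifit1, Ifit3, Stat2 and Rsad2. The gamma-activated site lay in 9 of 30, or 30%, against 2197 of 27025 genes, or 8.13%. It lay in 5 of 10 interferon gamma targets, namely Irf1, Irf8, Psmb8, Gbp5 and Igtp. It also lay in 4 of 20 type I induced members, namely Bst2, Ifit2, Isg20 and Oas1a. A match describes these letters and does not show that a factor binds there. Several genes had more than 1 start in the table, and over all 32851 promoters the core lay in 2.98% and the gamma-activated site in 7.02%.

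No member passed the test in any of the 3 comparisons. With limma and Benjamini-Hochberg adjustment over all 11861 genes at a threshold of 0.05, 0 of 32 members passed in WT against IL4R KO, where 4.7% of all genes tested passed, 0 of 32 in transgenic against IL4R KO, where 0.101% passed, and 0 of 32 in transgenic against WT, where 2.84% passed. At an unadjusted p under 0.05 the members numbered 7 of 32, 5 of 32 and 10 of 32 in the same order, beside 22.5%, 12.4% and 18% of all genes tested. Of the 32, Irf8, Parp14, Gbp3, Iigp1, Rsad2, Ifih1 and Oas1a passed under some of the alternative settings. Fits over more probes gave other calls. Without the filter on dim genes, where 2.8%, 0.0275% and 1.83% of 18193 genes passed, Mx1 passed in both comparisons with WT. Over all 45037 probe sets, where 1.58%, 0.0155% and 1.04% passed, probe sets of Mx1 and Irf8 passed in both comparisons with WT, 2 of the 54 member probe sets each time, and 0 passed in transgenic against IL4R KO.

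The clearest grouping among the values was of 6 interferon-inducible GTPases, proteins that coat and disrupt the vacuoles in which intracellular microbes live. All 6 GTPases measured, Gbp2, Gbp3, Gbp6, Igtp, Irgm1 and Iigp1, were higher in both transgenic arrays than in both IL4R KO arrays, by a median of 0.50 and from 0.36 to 0.93 on the log2 scale, and none passed the test. The share of all genes tested that lay apart and higher in that comparison was 21.1%. Over the 21 type I induced members the same median was 0.04, and over all genes tested -0.005. The plot of all tested members shows this as 6 points to the right of the others in its middle panel.

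**Figure D1:**
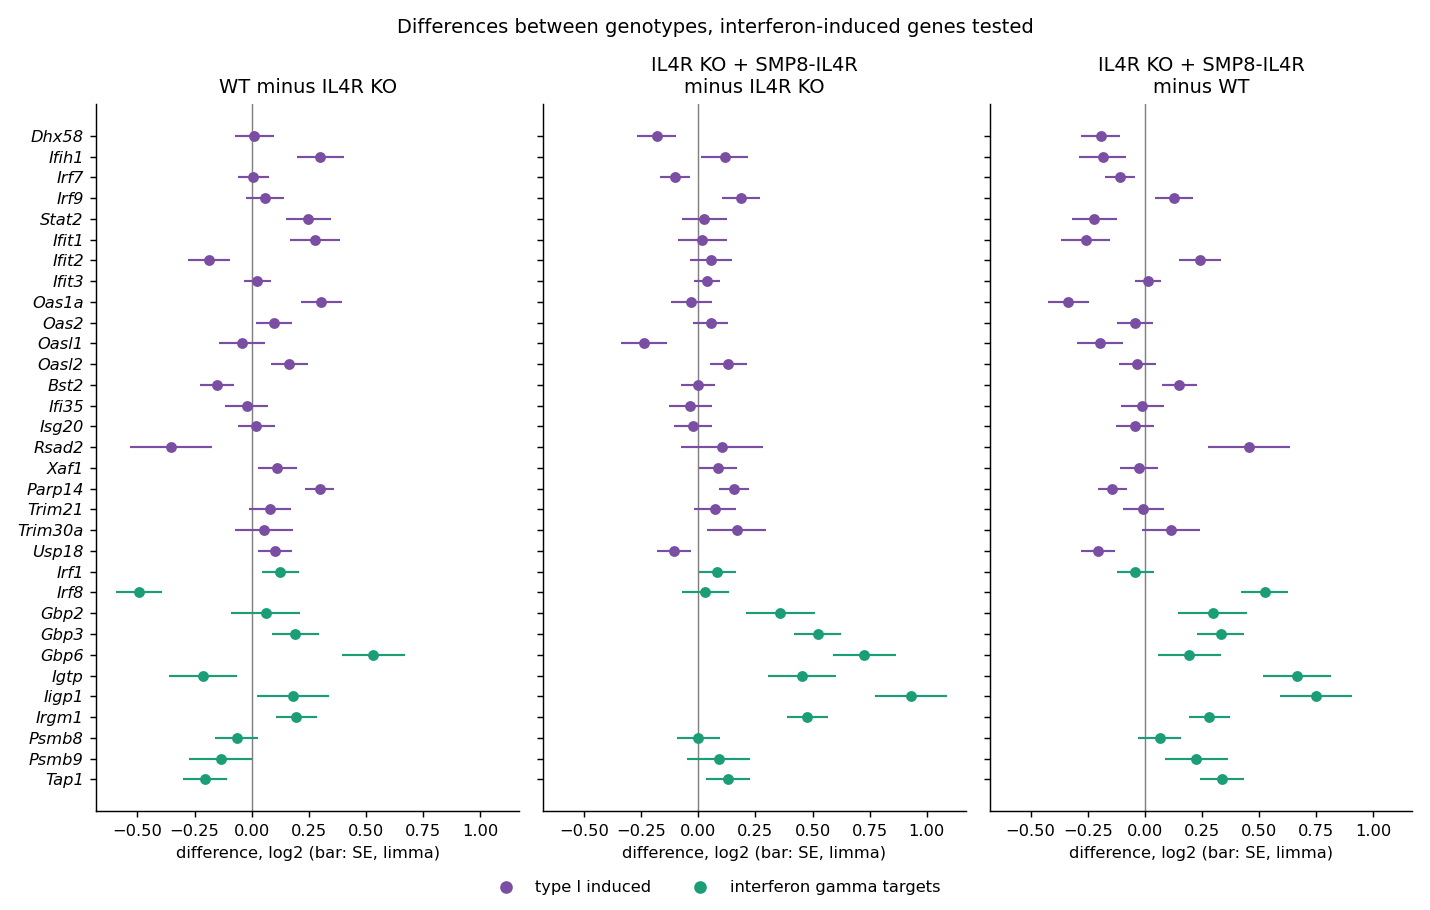
Differences between genotypes in log2 units (horizontal axis) for the 32 members tested, with 1 row per gene, points as the difference of group means of 2 arrays and bars as the standard error from limma. Purple points are 21 type I induced genes and green points 11 interferon gamma targets; in the middle panel, transgenic minus IL4R KO, the 6 GTPases lie between 0.36 and 0.93, and no type I induced gene is above 0.19.

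Iigp1, an immunity-related GTPase, had values of 10.87 and 10.38 in the 2 transgenic arrays, 9.69 and 9.70 in the knockout and 9.80 and 9.94 in WT. Both transgenic arrays were above the other 4, and pool 1 was the higher of the pair. The difference from IL4R KO was 0.93 ± 0.16 (SE, n = 2 per group), a 1.90-fold difference, with a limma adjusted p of 0.206, and from WT it was 0.75 with an adjusted p of 0.0786. Its other probe set had the same order, with 9.56 and 8.97 in the transgenic arrays against 8.17 to 8.61 in the other 4. Without transgenic pool 2, the difference of the main probe set from WT was 0.99 with an adjusted p of 0.0270, and without pool 1 it was 0.51 with an adjusted p of 0.152. A group left with a single array in this way was assumed to vary like the other groups.

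Gbp6, a guanylate-binding protein, had values of 10.19 and 9.78 in transgenic lung, 9.29 and 9.22 in the knockout and 9.85 and 9.73 in WT. Transgenic and WT arrays overlapped, and both IL4R KO arrays were below them. The difference between transgenic and IL4R KO was 0.73 ± 0.14 (SE, adjusted p = 0.219 with limma) and between WT and IL4R KO 0.53 ± 0.14 (adjusted p = 0.0950). Of the 6 GTPases, Gbp6 had the largest difference between WT and IL4R KO.

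Gbp3 had values of 9.99 and 9.89 in transgenic lung, 9.28 and 9.56 in the knockout and 9.60 and 9.62 in WT. Its transgenic arrays lay above the other 4, and the 2 IL4R KO pools differed by more than the other pairs. The difference between transgenic and IL4R KO was 0.52 ± 0.10 (SE, adjusted p = 0.219 with limma). Against WT it was 0.33 (adjusted p = 0.184), and WT lay 0.19 above the knockout (adjusted p = 0.342). With IL4R KO pool 2 left out the difference between transgenic and IL4R KO was 0.66 with an adjusted p of 0.0330, and with pool 1 left out it was 0.38 with an adjusted p of 0.0797, each against a single knockout array.

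Irgm1, which regulates the other immunity-related GTPases, had values of 9.96 and 9.74 in transgenic lung, 9.41 and 9.33 in the knockout and 9.59 and 9.55 in WT. The 3 groups did not overlap, with IL4R KO lowest and transgenic highest. The difference between transgenic and IL4R KO was 0.48 ± 0.09 (SE, adjusted p = 0.219 with limma), and between transgenic and WT 0.28 (adjusted p = 0.184). WT lay 0.20 above IL4R KO (adjusted p = 0.260).

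Igtp, of the same family, had values of 10.35 and 9.92 in transgenic lung, 9.70 and 9.66 in the knockout and 9.37 and 9.57 in WT. It was the single GTPase member whose WT arrays both lay below both IL4R KO arrays. The difference was 0.45 ± 0.15 for transgenic against IL4R KO (SE, adjusted p = 0.332 with limma) and 0.66 for transgenic against WT (adjusted p = 0.0932).

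Gbp2 had values of 11.12 and 10.84 in transgenic lung, 10.44 and 10.80 in the knockout and 10.61 and 10.75 in WT. The lower transgenic array was above the higher IL4R KO array by little, and the difference was 0.36 ± 0.15 (SE, adjusted p = 0.416 with limma). Its dimmer probe set gave 10.16 and 9.84 in transgenic lung against 9.77 and 9.96 in IL4R KO, which overlapped, so Gbp2 counted as apart through 1 of its 2 probe sets. Probe sets ending in x_at, as the brighter one does, can bind related transcripts, and guanylate-binding proteins resemble each other closely.

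**Figure D2:**
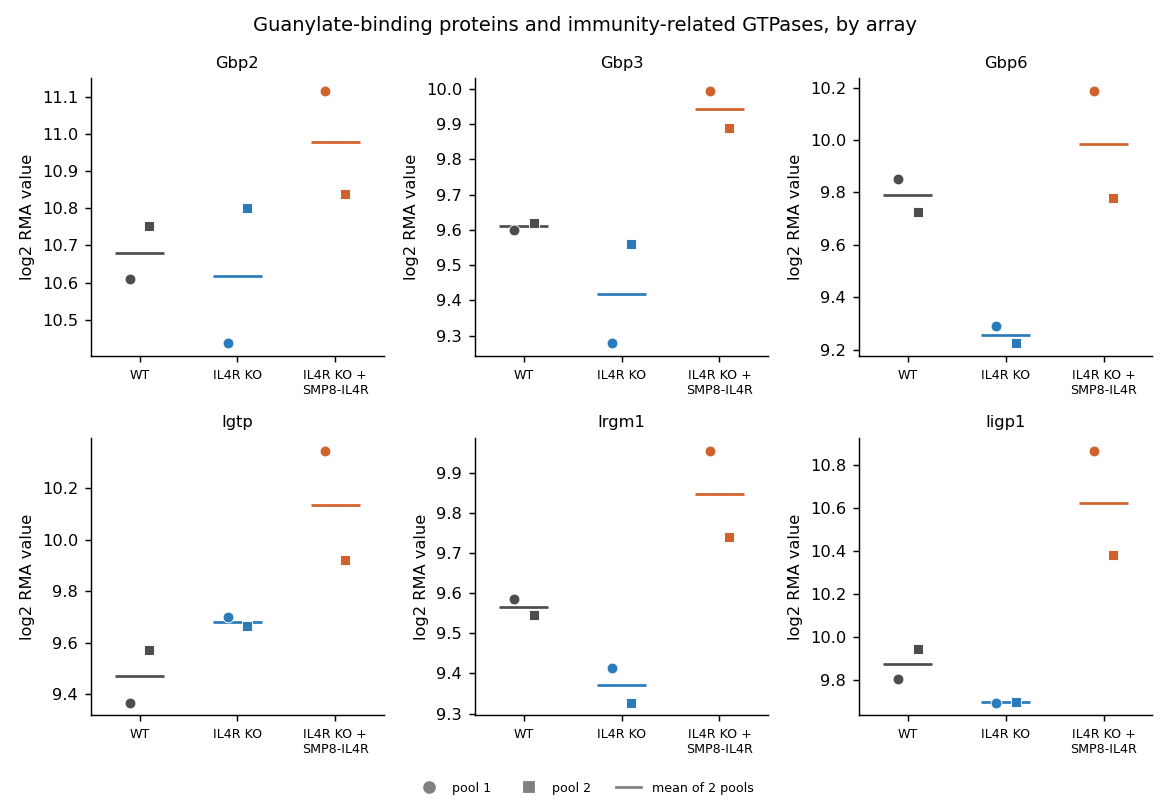
Log2 RMA values (vertical axis, a separate scale in each panel) of the 6 GTPase members on each of the 6 arrays, with circles for pool 1, squares for pool 2 and lines for the mean of the 2 pools. In each panel both transgenic points lie above both IL4R KO points, and the circle is the higher of the 2 transgenic points.

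In transgenic against WT, the 6 GTPases had a median difference of 0.31 and 5 of 6 lay apart and higher, where 38.2% of all genes tested did. In WT against IL4R KO their median was 0.18, with 4 of 6 apart and higher and Igtp apart and lower, where 22.5% of all genes tested lay apart and higher and 29.1% apart and lower. The comparisons share arrays and are not independent of each other. Summed over the 6 genes on the linear scale, the level was 13.06 and 12.73 in transgenic lung, 12.28 and 12.40 in the knockout and 12.45 and 12.51 in WT, as log2. With transgenic pool 1 left out, the median of the 6 against IL4R KO was 0.42, and with pool 2 left out it was 0.62. Their median for WT against IL4R KO was 0.11 without IL4R KO pool 1.

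Markers of neutrophils were uneven between pools and were highest in the array where these genes were highest. Of 7 neutrophil genes listed, 5 had a probe set, and their summed level was 14.61 in transgenic pool 1 and 11.80 in pool 2, 13.59 and 12.21 in the knockout and 11.60 and 12.12 in WT. S100a8, a calprotectin subunit, had values of 13.59 and 10.56 in the transgenic pools, 12.56 and 11.08 in the knockout and 10.25 and 10.88 in WT. Transgenic pool 2 had a higher GTPase level than either IL4R KO array and a lower neutrophil level. IL4R KO pool 1 had the second highest neutrophil level and the lowest GTPase level. The summed level of 7 macrophage and monocyte genes was highest in WT, at 13.34 and 13.39, with 13.07 and 13.06 in the knockout and 13.10 and 12.92 in transgenic lung. Of these, Ccr2, a chemokine receptor of inflammatory monocytes, had the order of the summed GTPases. It read 9.72 and 9.37 in transgenic lung, 8.81 and 9.06 in the knockout and 9.14 and 9.29 in WT. Its transgenic minus IL4R KO difference was 0.61 (adjusted p = 0.262 with limma). The other genes of the list did not have that order. Csf1r was lower in both transgenic arrays than in both IL4R KO arrays, at -0.18, and Mrc1, Adgre1, Cd68 and Siglecf overlapped there. Marco, below the filter, was higher in transgenic lung than in IL4R KO, by 0.52, but lowest in WT. The part of neutrophils and monocytes in the GTPase values was not tested. The summed level of 6 NK cell genes, from cells that make interferon gamma, was 10.98 and 10.92 in transgenic lung, 10.21 and 11.80 in the knockout and 10.88 and 10.81 in WT, and that of 6 T cell genes was highest in IL4R KO pool 2, at 10.99. In whole lung RNA, a change in the number of cells of a type and a change in RNA per cell cannot be told apart.

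**Figure D3:**
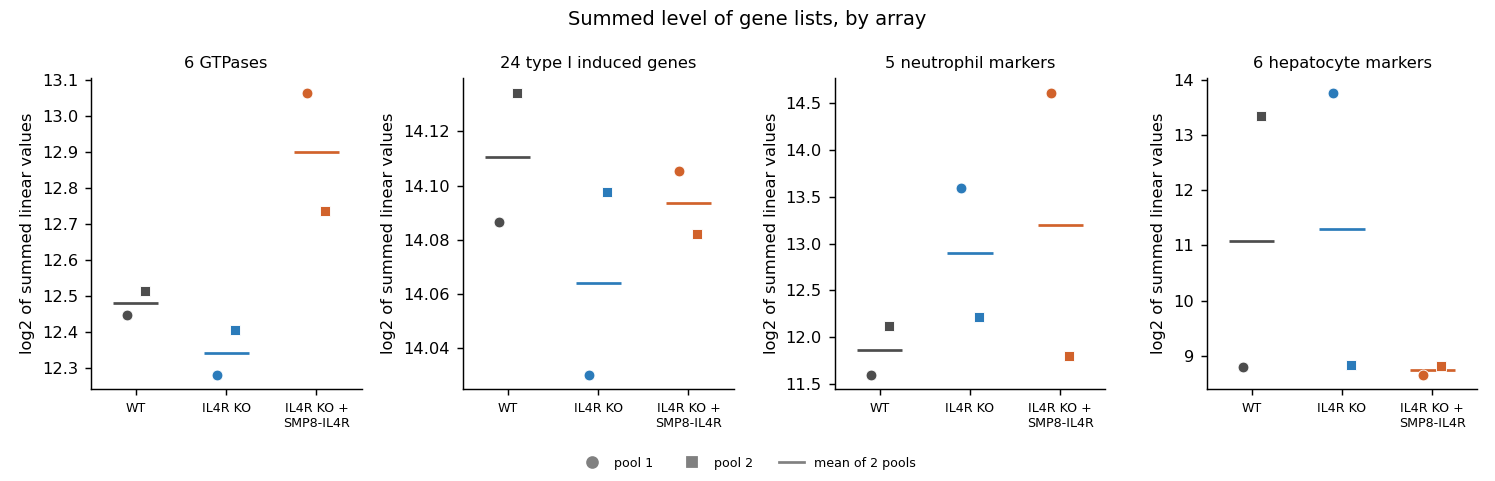
Summed level of 4 gene lists on each array, as log2 of the sum of linear values (vertical axis, a separate scale in each panel), with circles for pool 1, squares for pool 2 and lines for the mean of the 2 pools. GTPases were highest in both transgenic pools, neutrophil markers in transgenic pool 1 at 14.61, and hepatocyte markers in WT pool 2 and IL4R KO pool 1, at 13.35 and 13.77; the panel of type I induced genes spans 14.03 to 14.13.

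The other interferon gamma targets did not share that order. Irf1, the transcription factor that relays the gamma signal, ranged from 11.32 to 11.59 over the 6 arrays with overlap between all groups, and WT minus IL4R KO was 0.13 (adjusted p = 0.413 with limma). The immunoproteasome subunits Psmb8 and Psmb9 and the peptide transporter Tap1 differed between transgenic and IL4R KO by -0.0002, 0.09 and 0.13, with overlapping arrays. Tap1 had values of 9.09 and 8.92 in transgenic lung, 8.79 and 8.96 in the knockout and 8.72 and 8.62 in WT. It differed between transgenic and WT by 0.34 (adjusted p = 0.155 with limma) and between WT and IL4R KO by -0.21 (adjusted p = 0.277). These values are of the brightest of its 4 probe sets. The others all read below 7.10, the median of all values, and transgenic minus WT was negative on each, at -0.15, -0.05 and -0.08. Over the 11 targets the median difference was 0.36 for transgenic against IL4R KO, 0.30 for transgenic against WT and 0.06 for WT against IL4R KO, beside -0.005, 0.03 and -0.02 over all genes tested. In 8 of the 11 the highest array was transgenic pool 1.

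Irf8 had another pattern, in which WT stood apart from both groups without the native receptor. Irf8 is a transcription factor of the interferon gamma response that is also needed for the development of dendritic cells and is expressed in B cells. Its brighter probe set had values of 9.82 and 9.85 in WT, 10.18 and 10.47 in the knockout and 10.37 and 10.34 in transgenic lung. Both WT arrays lay below the other 4, and IL4R KO and transgenic arrays overlapped. WT minus IL4R KO was -0.49 ± 0.10 (SE, adjusted p = 0.0579 with limma) and transgenic minus WT 0.52 ± 0.10 (adjusted p = 0.0635), both just over the threshold, and transgenic minus IL4R KO was 0.03.

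The dimmer Irf8 probe set had values of 9.28 and 9.25 in WT, 9.79 and 10.00 in the knockout and 10.03 and 9.92 in transgenic lung, in the same order. In the limma fit over all probe sets this one passed, at -0.63 ± 0.10 for WT minus IL4R KO (adjusted p = 0.0331) and 0.71 ± 0.10 for transgenic minus WT (adjusted p = 0.0266), while the brighter one did not, at 0.0921 and 0.0939. The brighter probe set also passed in both comparisons with an intensity trend and robust moderation and with re-centred arrays. It passed in neither comparison where the only array left out was 1 WT or 1 transgenic array. With WT pool 2 and IL4R KO pool 1 left out together, it differed by -0.65 for WT minus IL4R KO. For transgenic minus WT the difference was then 0.54. Without IL4R KO pool 1, WT minus IL4R KO was -0.64, and without pool 2 it was -0.35, each against a single knockout array. For transgenic minus WT, leaving out 1 IL4R KO array gives the same result as fitting those 2 groups alone, so these are not separate settings.

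The summed levels of 2 marker lists of cells that express Irf8 were lowest in WT as well, though their genes did not all have that order. It was not particular to these lists. The sum of 6 T cell genes was also lowest in WT, at 10.26 and 10.40 against 10.48 to 10.99. Of the T cell genes Cd8a, below the filter, was higher in both WT arrays than in the other 4. Summed over 5 plasmacytoid dendritic cell genes the level was 10.32 and 10.34 in WT against 10.66 to 10.97 in the other 4 arrays, and over 5 B cell genes it was 10.63 and 10.73 against 10.83 to 11.85. The brightest gene of the plasmacytoid list, Cox6a2, weighed most in the sum of its list. It was 9.34 and 9.36 in WT against 9.78 to 10.37, and Spib was also lowest in WT. Siglech was lowest in transgenic lung, at 6.52 and 6.45 against 6.67 and 6.70 in WT, Klk1 was highest in WT and Ccr9 overlapped. Of the B cell genes Cd79a was lowest in both WT arrays, whereas Ms4a1 and Cr2 in IL4R KO pool 1 were no higher than in WT. Over 6 dendritic cell genes the summed level was highest in WT, with 10.79 and 10.79 against 10.53 to 10.69. These genes went both ways. Batf3, at 8.64 and 8.50 in WT against 6.60 to 6.99, and Cd209a were higher in both WT arrays than in the other 4. Itgae, at 7.31 and 7.46 in WT against 7.95 to 8.19, and Zbtb46 were lower, and Flt3 and Xcr1 overlapped. The part of these cell types in the Irf8 difference was not tested.

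Among the type I induced members, Mx1 had the widest range. Mx1 encodes an antiviral dynamin-like GTPase, and many inbred mouse strains, BALB/c among them, carry a defective copy of it. Its values were 6.76 and 6.92 in WT, 5.86 and 5.73 in the knockout and 5.51 and 5.73 in transgenic lung. Both WT arrays lay above the other 4, and all 6 were below 7.10, the median of all values, so Mx1 was dim and did not enter the main test. In the limma fit without the filter it was higher in WT than in IL4R KO by 1.05 ± 0.10 (SE, adjusted p = 0.00652), a 2.07-fold difference, and lower in transgenic lung than in WT, at -1.22 ± 0.10 (adjusted p = 0.00427). Transgenic and IL4R KO differed by -0.17 (adjusted p = 0.569). With WT pool 2 left out, and a single WT array, neither call held, at adjusted p of 0.0726 and 0.0540, and with pool 1 left out both did, at 0.0480 and 0.0397. Mx2, its paralogue, ranged from 6.87 to 7.03 over the 6 arrays.

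**Figure D4:**
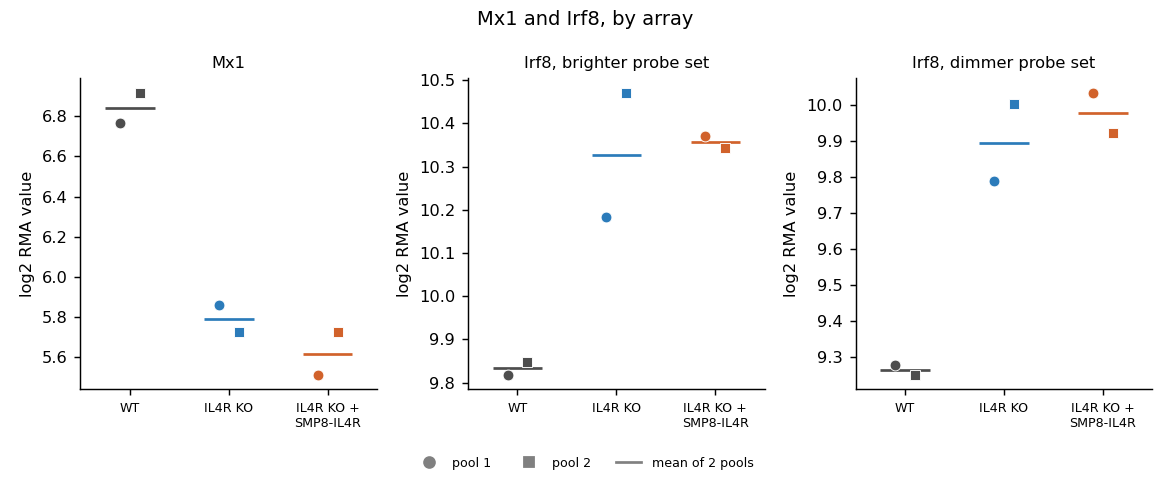
Log2 RMA values (vertical axis, a separate scale in each panel) of Mx1 and of both Irf8 probe sets on each array, with circles for pool 1, squares for pool 2 and lines for the mean of the 2 pools. Mx1 is higher in WT, at 6.76 and 6.92, than on the other 4 arrays, and both Irf8 probe sets are lower in WT than on the other 4 arrays.

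The remaining type I induced members varied little. Their range over the 6 arrays had a median of 0.29 in log2 units for the 21 tested, beside 0.65 for the 11 interferon gamma targets and 0.28 for all genes tested. Median differences of the 21 were 0.06 for WT against IL4R KO, 0.04 for transgenic against IL4R KO and -0.04 for transgenic against WT. In WT against IL4R KO, 8 lay apart and higher and 3 apart and lower, in transgenic against IL4R KO 4 and 3, and in transgenic against WT 4 and 9. Of all genes tested, 22.5%, 21.1% and 38.2% lay apart and higher in the same order, and 29.1%, 20.6% and 23.6% apart and lower.

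Among sensors of viral RNA, Ifih1 had values of 9.85 and 10.00 in WT, 9.50 and 9.75 in the knockout and 9.77 and 9.70 in transgenic lung, with WT above the other 4 arrays. WT minus IL4R KO was 0.30 ± 0.10 (SE, adjusted p = 0.166 with limma). Dhx58, a regulator of the same sensors, differed by -0.18 between transgenic and IL4R KO (adjusted p = 0.449). Both genes were lower in both transgenic arrays than in both WT arrays, at -0.18 for Ifih1 and -0.19 for Dhx58.

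Of the transcription factors of the type I response, Stat2 had values of 8.68 and 8.87 in WT, 8.45 and 8.61 in the knockout and 8.60 and 8.50 in transgenic lung. WT minus IL4R KO was 0.25 (adjusted p = 0.210 with limma) and transgenic minus WT -0.22 (adjusted p = 0.310). Irf9, its partner, was 9.83 and 9.86 in transgenic lung, 9.55 and 9.76 in the knockout and 9.69 and 9.74 in WT, with a difference of 0.19 between transgenic and IL4R KO (adjusted p = 0.437). Irf7, which amplifies type I interferon production, ranged from 8.85 to 9.05, with -0.10 for transgenic minus IL4R KO (adjusted p = 0.565).

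The IFIT proteins, which bind foreign RNA, did not move as a family. Ifit1 had values of 9.39 and 9.43 in WT, 9.23 and 9.03 in the knockout and 9.03 and 9.27 in transgenic lung, and WT lay above the others. Ifit2 had the opposite order, with 8.79 and 8.93 in WT, 8.94 and 9.15 in the knockout and 9.09 and 9.11 in transgenic lung. Ifit3 ranged from 9.87 to 9.93. The limma difference between WT and IL4R KO was 0.28 for Ifit1 (adjusted p = 0.208) and -0.19 for Ifit2 (adjusted p = 0.300), and between transgenic and WT it was -0.26 (adjusted p = 0.288) and 0.24 (adjusted p = 0.254).

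Oligoadenylate synthetases, which activate RNase L, were likewise uneven. Oas1a had values of 9.43 and 9.59 in WT, 9.29 and 9.12 in the knockout and 9.14 and 9.21 in transgenic lung. Its WT arrays lay above the other 4, with 0.30 for WT minus IL4R KO (adjusted p = 0.129 with limma) and -0.33 for transgenic minus WT (adjusted p = 0.143). Oasl2 was 8.87 and 8.77 in WT, 8.61 and 8.70 in the knockout and 8.71 and 8.86 in transgenic lung, and Oasl1 was lowest in transgenic lung, at 6.92 and 6.96 against 7.06 to 7.30. The limma difference between transgenic and IL4R KO was 0.13 for Oasl2 (adjusted p = 0.539) and -0.24 for Oasl1 (adjusted p = 0.414). Oas2 differed by 0.10 between WT and IL4R KO, and Oas3, below the filter, ranged from 6.46 to 6.67.

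Parp14, an ADP-ribosyltransferase that is also known as a partner of Stat6 in the IL-4 response, had the lowest p of the type I induced members in WT against IL4R KO. Its values were 9.78 and 9.86 in WT, 9.50 and 9.54 in the knockout and 9.71 and 9.65 in transgenic lung. On this probe set, the brighter of 2, the 3 groups did not overlap, with transgenic lung between the others. WT minus IL4R KO was 0.30 ± 0.06 (SE, adjusted p = 0.0638 with limma) and transgenic minus IL4R KO 0.16 ± 0.06 (adjusted p = 0.409). The dimmer probe set did not have that order. It read 7.44 and 7.45 in WT, 7.46 and 7.42 in the knockout and 7.59 and 7.50 in transgenic lung, with 0.003 for WT minus IL4R KO.

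Rsad2, the antiviral enzyme viperin, ran the other way. It had values of 10.06 and 10.05 in WT, 10.67 and 10.14 in the knockout and 10.63 and 10.38 in transgenic lung. WT was lowest, and the 2 IL4R KO pools differed by more than any group means. Transgenic minus WT was 0.46 ± 0.18 (SE, adjusted p = 0.265 with limma). In the fit of those 2 groups alone the same difference passed, at an adjusted p of 0.0494.

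Usp18, which removes Isg15 from proteins and dampens type I signalling, differed by -0.21 between transgenic and WT lung (adjusted p = 0.236 with limma), with 9.23 and 9.35 against 9.47 and 9.52. Bst2, the virus-tethering protein, was 9.18 and 9.20 in WT against 9.27 to 9.42 in the other arrays. Trim21 ranged from 8.92 to 9.17, Trim30a from 9.02 to 9.40, Isg20 from 10.53 to 10.70, Ifi35 from 11.64 to 11.90 and Xaf1 from 10.14 to 10.38, with overlap between WT and IL4R KO in each.

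Other genes of the pathway were taken from 5 lists with 79 genes, of which 71 had a probe set and 62 were tested. Socs1, the feedback inhibitor of interferon and IL-4 signalling, had values of 7.37 and 7.21 in WT, 6.50 and 6.60 in the knockout and 6.83 and 6.78 in transgenic lung. It exceeded the filter level of 7.10 in WT alone, and so was tested through the group where it was high. WT minus IL4R KO was 0.74 ± 0.08 (SE, adjusted p = 0.00891 with limma, and 0.0116 without the filter). Transgenic minus WT was -0.49, with an adjusted p of 0.0415 that became 0.0553 without the filter. Among the other 10 signalling genes tested, none passed in any comparison. Stat4, which relays IL-12 signals in NK and T cells, was 7.17 and 7.62 in IL4R KO against 6.83 to 7.14 elsewhere, with -0.55 for WT minus IL4R KO (adjusted p = 0.114).

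The interferons themselves were dim. Ifng ranged from 3.92 to 4.55 and Ifna4 from 4.38 to 4.56, below 5.30, the lower quartile of all values, and Ifnb1 from 5.43 to 5.68, and none was tested. Of 6 receptor chains tested none passed, and Ifngr2 came nearest, with 10.01 and 10.06 in WT, 9.47 and 9.62 in the knockout and 9.70 and 9.47 in transgenic lung. WT minus IL4R KO was 0.49 ± 0.10 (SE, adjusted p = 0.0535 with limma) and transgenic minus WT -0.45 (adjusted p = 0.0864). Of 15 nucleic acid sensing genes tested none passed. The endosomal RNA sensor Tlr3 had 0.25 for WT minus IL4R KO (adjusted p = 0.143) and the cytosolic RNA sensor Ddx58 0.24 (adjusted p = 0.187).

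Of 17 other type I induced genes tested, 1 passed, in WT against IL4R KO, where 4.7% of all genes tested passed. Ifi27l2a was lower in WT than in IL4R KO, at -0.51 ± 0.09 (SE, adjusted p = 0.0347 with limma), with 9.99 and 10.14 in WT, 10.65 and 10.51 in the knockout and 10.13 and 10.24 in transgenic lung. Cxcl10, a T cell chemoattractant listed there and also induced by interferon gamma, had values of 9.30 and 8.06 in transgenic lung, 7.65 and 6.86 in the knockout and 7.12 and 7.52 in WT. Both transgenic arrays lay above the other 4, and the difference from WT was 1.36 ± 0.45 (adjusted p = 0.204).

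Of 13 other interferon gamma targets tested, 2 passed in transgenic against WT lung, both higher, where 2.84% of all genes tested passed. In that comparison 8 of the 13 lay apart and higher, where 38.2% of all genes tested did. None passed in the other comparisons. Cxcl9, which shares the receptor of Cxcl10, had values of 9.50 and 8.34 in transgenic lung, 7.95 and 6.91 in the knockout and 6.11 and 6.09 in WT, and the 3 groups did not overlap. Transgenic minus WT was 2.82 ± 0.46 (SE, adjusted p = 0.0383 with limma, and 0.0419 without the filter, whose level both WT arrays were under), a 7.06-fold difference, and transgenic minus IL4R KO 1.49 (adjusted p = 0.315). As with the neutrophil genes, Cxcl9 was higher in pool 1 than in pool 2 of the transgenic and IL4R KO groups. Cxcl11, below the filter, was 7.35 and 6.07 in transgenic lung against 5.29 to 5.80.

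Nlrc5, the activator of MHC class I genes, rose in transgenic against WT lung by 0.77 ± 0.12 (SE, adjusted p = 0.0350 with limma), with 8.17 and 7.88 in transgenic lung, 7.39 and 7.57 in the knockout and 7.30 and 7.20 in WT. Its class I targets B2m, H2-K1 and H2-D1 each ranged by little, from 13.76 to 13.89, 13.38 to 13.45 and 13.62 to 13.71. Of the GTPases on this list, Gbp7 had 10.63 and 10.60 in transgenic lung, 10.03 and 10.15 in the knockout and 10.31 and 10.25 in WT, and Irgm2 had 10.07 and 9.81 against 9.52 and 9.60 and against 9.59 and 9.61. In both, the transgenic arrays lay above the other 4. The list also holds the GTPases Tgtp1, Gbp8 and Gbp9, whose values are not given here. The differences between transgenic and IL4R KO were 0.52 for Gbp7 (adjusted p = 0.138) and 0.38 for Irgm2 (adjusted p = 0.274).

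**Figure D5:**
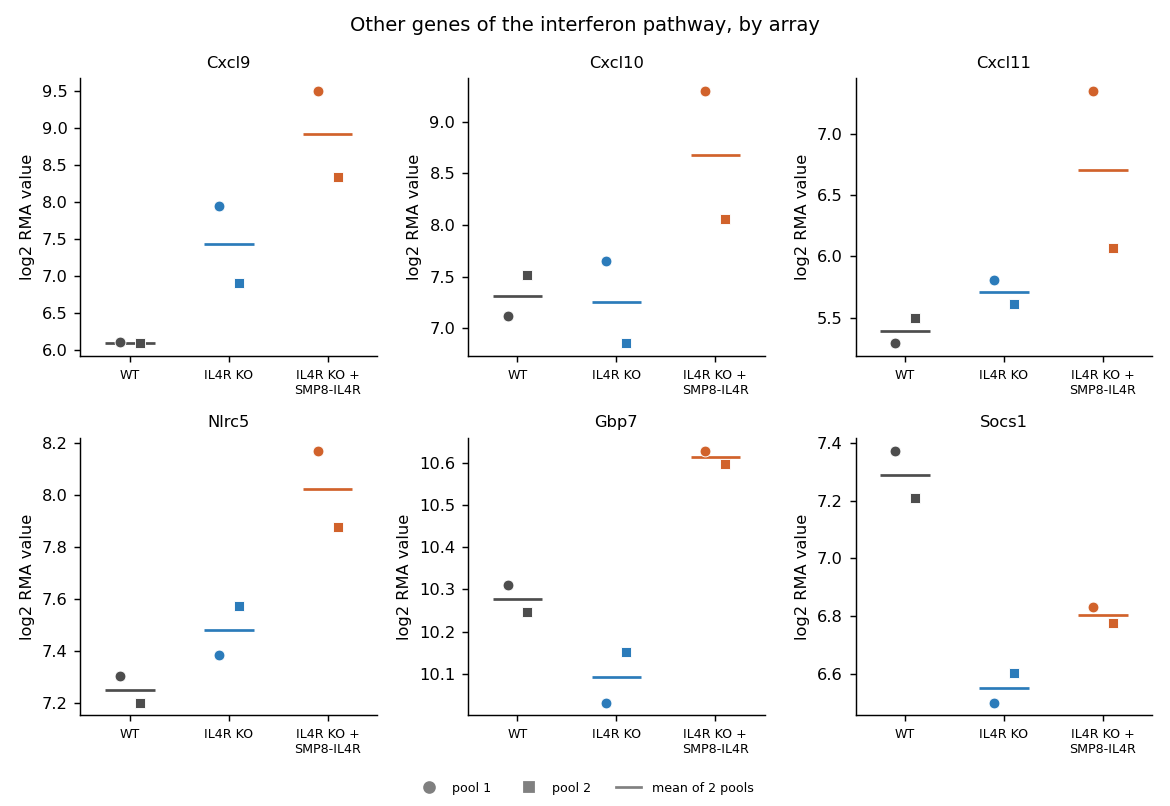
Log2 RMA values (vertical axis, a separate scale in each panel) of 6 other genes of the pathway on each array, with circles for pool 1, squares for pool 2 and lines for the mean of the 2 pools. Cxcl9, Cxcl10, Cxcl11, Nlrc5 and Gbp7 are highest in the transgenic arrays, and Socs1 is highest in WT, at 7.37 and 7.21.

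The targeted gene Il4ra had 3 probe sets, and 1 of them read 9.23 and 9.29 in WT against 8.80 to 8.94 in the other arrays, while another read 9.98 and 9.84 in transgenic lung against 9.35 and 9.55 in IL4R KO. Lung markers were high throughout, with the surfactant gene Sftpc between 14.73 and 14.76. Hepatocyte genes were present in WT pool 2 and IL4R KO pool 1, where Alb read 11.81 and 12.26 against 5.68 to 5.93 elsewhere. The SD over genes of pool 1 minus pool 2 was 0.169 in transgenic lung, 0.221 in WT and 0.340 in the knockout. Without both arrays with hepatocyte genes, the median of the 6 GTPases was 0.50 for transgenic against IL4R KO, where it was 0.50 with them, and 0.075 for WT against IL4R KO, where it was 0.18, and the medians of the 21 type I induced genes and 11 interferon gamma targets for WT against IL4R KO turned negative, at -0.02 and -0.19.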

How the data were processed

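Each array's deposited values are log2 numbers that, per the submitters' processing notes, come from RMA, which corrects background, normalizes by quantiles and summarises probes; no RMA version is stated there. RMA compresses dim signals, so differences of dim genes may be understated. The number of arrays limits the precision. After 64 control probe sets were dropped, 34945 of the rest named 1 gene, 932 several and 9160 none, and only the first kind was used. The brightest probe set on average stood for a gene, and a gene was tested if at least 2 arrays exceeded 7.10, the median over all values. Group means were fitted to all 6 arrays in limma 3.58.1 (R 4.3.3) with moderated variances (3 residual and 2.86 prior degrees of freedom) and Benjamini-Hochberg adjustment over 11861 genes. The procedure was tested on simulated data. Groups whose arrays do not overlap are called apart.

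The members and lists were chosen with earlier results of these data known. Named were, per comparison, the 6 type I induced genes and 6 interferon gamma targets of lowest p, the 6 members of widest range, and, of the other pathway lists, the passing genes and the 2 of lowest p, given here in part. Alternatives were the dim filter, the probe set rule, an intensity trend with robust moderation, re-centring, fewer arrays and the pool number as a block. Promoters came from RefSeq tables (GRCm38.p6).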

Additional observations from a re-analysis of the deposited data

How the results depend on the processing

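The 6 GTPases kept a positive median in all 3 comparisons under every alternative run. With 1 array left out at a time it ranged from 0.42 to 0.62 for transgenic against IL4R KO, from 0.23 to 0.42 for transgenic against WT and from 0.11 to 0.21 for WT against IL4R KO, where it was 0.075 without both arrays with hepatocyte genes. A group left with 1 array was assumed to vary like the others. Left-out arrays also moved the counts of all genes past the threshold, from 557 to between 110 and 1519 for WT against IL4R KO, from 12 to between 0 and 177 for transgenic against IL4R KO, and from 337 to between 77 and 910 for transgenic against WT. Type I induced members past it numbered 0 to 2, 0 and 0 to 1 in the same order, and interferon gamma targets 0 to 2, 0 to 1 and 0 to 2. Without IL4R KO pool 1, Irf8 and Oas1a passed in WT against IL4R KO, and without pool 2, Irf8, Gbp3, Ifih1 and Rsad2 did. For transgenic against WT, a fit without 1 IL4R KO pool equals the fit of those 2 groups alone, where Irf8, Gbp3 and Rsad2 passed. Median differences ranged, for WT against IL4R KO, from 0.0071 to 0.14 for type I induced genes and from -0.12 to 0.15 for interferon gamma targets. For transgenic against IL4R KO they ranged from -0.0059 to 0.056 and from 0.18 to 0.50, and for transgenic against WT from -0.11 to -0.032 and from 0.17 to 0.40. Member probe sets past the threshold numbered 0 to 3 in both comparisons with WT.

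Without both arrays with hepatocyte genes, the medians were -0.018 for type I induced genes and -0.19 for interferon gamma targets in WT against IL4R KO, and -0.0059 and 0.18 in transgenic against IL4R KO; 1 interferon gamma target, Irf8, passed in each comparison with WT, and 1 member probe set. Irf8 was also the 1 target that passed in each comparison with WT under the median of probe sets, the robust trend and re-centring, the settings under which the 1 type I induced gene passing in WT against IL4R KO was Parp14 (trend and re-centring). With the median of probe sets the type I median there was 0.093, and without the filter 1 type I induced gene, Mx1, passed in each comparison with WT. All genes past the threshold for transgenic against IL4R KO numbered 5 without the filter, 7 with the median of probe sets, 19 with the trend and 0 with these groups alone. With the groups compared alone, 300 genes and 1 member probe set passed in WT against IL4R KO, and 910 genes, 2 interferon gamma targets and 1 type I induced gene in transgenic against WT. The causes were not tested, beyond the fewer genes or arrays used.

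Deviations of same-numbered pools correlated over 11861 genes at -0.509 for WT and IL4R KO, -0.0875 for WT and transgenic and 0.121 for IL4R KO and transgenic. Hepatocyte genes, present in WT pool 2 and IL4R KO pool 1, enter the first value with opposite signs. That value therefore cannot show whether pools of the same number were handled together. With the pool number as a replicate block, 0 members passed in any comparison and 1 member probe set, against 2, passed in WT against IL4R KO. With the pool numbers of WT and IL4R KO crossed, chosen after seeing the data, 549 genes and 1 interferon gamma target passed.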
